A study of Schmidtea mediterranea with 9 samples.

Results

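The transcripts described here are the 150 assembled components whose levels differed most between replicate libraries of the same condition, in sorted stem cells of the planarian Schmidtea mediterranea. A component groups the contigs that the assembler placed together and comes nearest to a gene. Levels are given in CPM, read counts scaled to the mapped reads of the library without the most abundant component. Of 46724 components in all, 9629 had a mean of 5 CPM or more over the 9 libraries. The 150 are those among them with the highest within-group SD, the root of the mean of the 3 within-group variances of log2(CPM + 0.1). These values chose the members, so the spread itself is a description and is not tested.

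Poly(A) RNA was sequenced from X1 cells of the region in front of the pharynx of starved asexual animals, sorted alive by a DNA content above that of diploid cells. The control libraries came from uninjured animals at 0 h. The anterior group lost the head and the posterior group lost the tail and pharynx, and both were sampled 48 h later. Each of the 3 groups held 3 libraries. The labels do not say how many animals went into a library, nor that replicates came from separate animals, so the spread between replicates may be technical. The uninjured animals were not followed to 48 h, and for this reason a wound and the elapsed time cannot be told apart against the control.

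X1 cells are the dividing fraction of the neoblasts, the adult stem cells from which planarians renew every tissue and rebuild lost parts. The population is known to be mixed: some neoblasts are pluripotent and others already express genes of the epidermis, gut, muscle, nervous system or other lineages. In a pooled sort, a transcript carried by a small share of the cells can vary between libraries when that share varies. In such bulk samples fewer cells of a type and less RNA per cell cannot be told apart. The files do not pair components with gene names, so no role is given to any component and the sorted cells could not be checked against neoblast markers or markers of other cell types.

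Mapped reads numbered between 14674800 and 23700877 per library, so 1 read was worth between 0.0496 and 0.0750 CPM. Unmapped reads were 11.4% of the reads of control replicate 1 (95% Wilson interval 11.36 to 11.39%, which covers counting error only) and between 3.96% and 5.46% elsewhere. A length score, the median deviation of 1051 components of 3000 bases or more minus that of 3074 components of 1000 bases or fewer, members left out, was highest in control replicate 1 (0.51 on the log2 scale) and lowest in posterior replicate 3 (-0.56). Of all mapped reads the members took 0.153% in anterior replicate 2, their lowest share, and 0.705% in control replicate 1, their highest.

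The within-group SD of the members ran from 1.01 to 3.79 with a median of 1.28 on the log2 scale, against a median of 0.22 over all 9629 components. The last members, comp18193_c0 and comp9309_c0, stood at 1.0120 and 1.0105, and the first components outside, comp11347_c0 and comp931_c0, at 1.0100 and 1.0055, so the limit falls in a continuous range. Between its highest and lowest library a member differed by a median of 11.8-fold (of CPM + 0.1), compared with 1.64-fold over all components. Counting error made up between 0.0199% and 3.88% of the within-group variance of a member, and 1 of the 150 had a library with 0 reads. The members had lower levels than the rest: their mean CPM had a median of 11.3, against 30.5 over all 9629, and 14 of 150 reached 50 CPM. The plot of spread against level shows that most abundant components lay far below the limit.

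**Figure D1:**
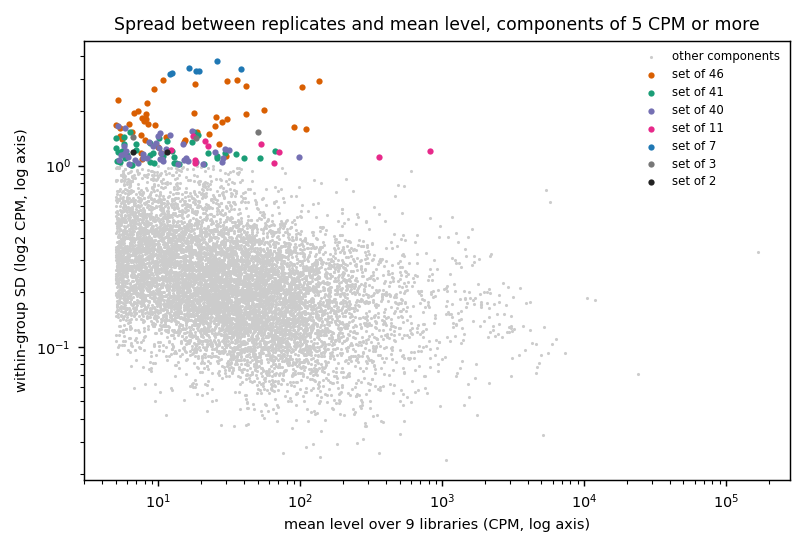
Within-group SD of log2(CPM + 0.1) against the mean CPM of 9629 components, both on log axes. Coloured points are the 150 members by set and grey points are all others; the members lie between 1.01 and 3.79.

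Most members shared their pattern of variation with other members. When members were clustered on their deviations from the group means (average linkage, correlation of 0.7 or more over the 9 libraries), 145 of the 150 fell into 5 sets of 46, 41, 40, 11 and 7 components. The last 5 formed a set of 3 and a set of 2. Other components were not clustered in this way, so the 145 of 150 have no background beside them. Within each of the 5 larger sets the median pairwise correlation lay between 0.84 and 0.97; since correlation defined the sets, these values describe them and carry no test. The mean patterns of different sets correlated between -0.79 and 0.30, the lowest for the sets of 40 and 7, over the same 9 libraries.

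**Figure D2:**
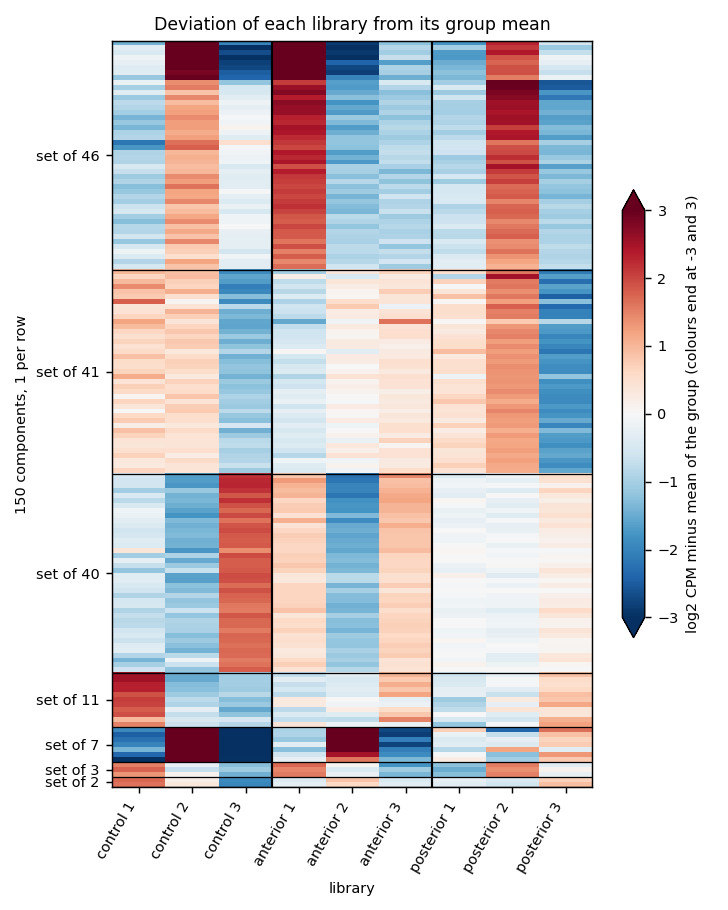
Log2 CPM of each member in each library minus the mean of the library's group, 1 component per row, sorted by set; colours end at -3 and 3. Each block of rows repeats 1 pattern of high (red) and low (blue) libraries, and different blocks single out different libraries of a group.

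No library was high or low for all members. Control replicate 2 was the highest library for 46 of the 150 members (30.7%) and for 4.77% of all 9629 components. Posterior replicates 2 and 3 were the highest for 30 members each (20%), near the 21.8% and 16.8% over all components, and anterior replicate 2 for 0 (4.25% over all). Posterior replicate 3 was the lowest library for 55 members (36.7%, beside 24.3% over all) and control replicate 2 for 28 (18.7%, beside 8.57%). The largest of the 3 within-group variances was that of the controls in 66 members (44%, beside 56.7% of all components), of the posterior libraries in 44 (29.3%, beside 34.6%) and of the anterior libraries in 40 (26.7%, beside 8.68%).

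The 7 components of the smallest of the 5 sets had the highest spread of all, ranking first to seventh with SDs between 3.22 and 3.79. They were abundant in 1 control library and, at a lower level, in 1 anterior library, and low elsewhere. The first of them, comp10416_c0 (326 bases), gave 0.750 CPM in control replicate 1, 204.0 in control replicate 2 and 0.102 in control replicate 3. It stood at 0.914, 24.8 and 0.192 CPM in the anterior libraries and at 1.29, 0.0640 and 2.53 CPM in the posterior libraries. Control replicate 2 thus lay above every other library, and anterior replicate 2 above the remaining ones.

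The component comp8684_c0 (629 bases) repeated this order, with 294.5 CPM in control replicate 2, 35.2 CPM in anterior replicate 2 and between 0.305 and 3.95 CPM in the other 7 libraries. The component comp10402_c0 (385 bases) stood at 152.0 CPM and 13.1 CPM in those libraries and at 2.90 CPM or less elsewhere. The components comp5731_c0, comp6765_c0 and comp7585_c0 had 123.0, 138.3 and 104.8 CPM in control replicate 2, and 21.5, 17.4 and 4.70 CPM in anterior replicate 2. In the first 5 of these 6 the ratio of control replicate 2 to anterior replicate 2 lay between 5.71 and 11.6, and in comp7585_c0 it was 22.3.

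The last of the 7, comp9899_c0 (231 bases), shared the control peak, with a much lower level in anterior replicate 2 (0.663 CPM) that was still the second highest. It held 2181 reads in control replicate 2, 11 in anterior replicate 2, between 1 and 4 in 5 libraries and 0 in anterior replicate 3 and posterior replicate 2, where 3 reads would be 0.192 CPM. All 7 have a single contig, and 6 of them are shorter than 500 bases. Summed over the set, control replicate 2 held 22695 reads, anterior replicate 2 held 1947 and the other libraries between 21 and 221. Without control replicate 2 the mean of 6 of the 7 fell under 5 CPM, and 1 remained among the 150.

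**Figure D3:**
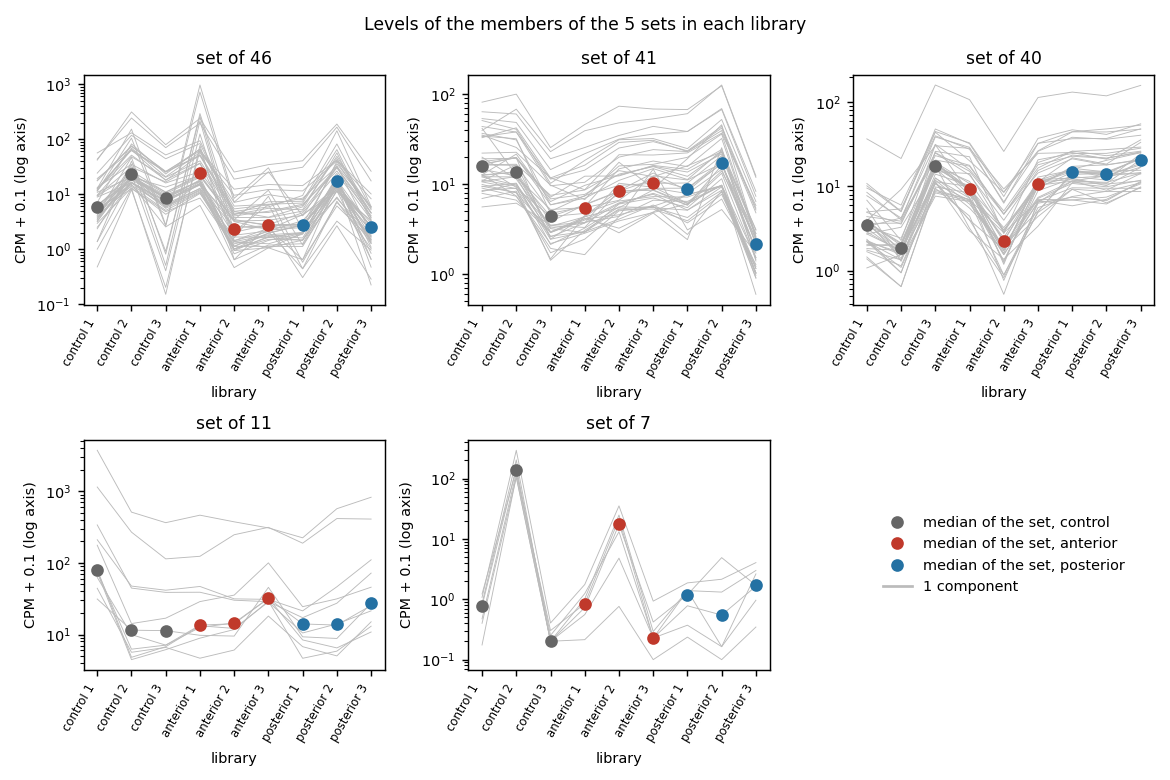
Level of every member (CPM + 0.1, log axis) in each library for the 5 sets; grey lines join the values of 1 component and have no meaning along the axis, since replicates have no order, and dots are medians of the set, coloured by group. In each of these sets libraries of 1 group lie far apart, as in the set of 7, where the median was 138.3 CPM in control replicate 2 and 0.102 CPM in control replicate 3.

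The largest set, of 46 components, was high in 1 library of every group: control replicate 2, anterior replicate 1 and posterior replicate 2. All 46 lay above their group mean in each of these 3 libraries. Control replicates 1 to 3 had a median member of 5.78, 23.0 and 8.41 CPM. The median stood at 24.1, 2.20 and 2.63 CPM in the anterior libraries and at 2.62, 17.1 and 2.41 CPM in the posterior libraries. The groups overlap fully in this order, and the 3 high libraries come from 3 different conditions. Their mapped reads (23375647, 20426337 and 17838410) lay inside the range of the other 6 libraries. So did their unmapped shares (5.35%, 4.28% and 5.46%), the first and the last only through the 11.4% of control replicate 1. Control replicate 2 and posterior replicate 2 had the most components with reads (41489 and 41869), and anterior replicate 1 had 39620. The part of these measures in the pattern was not tested.

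The summed level of the 46 differed 5.06-fold within the controls, 24.0-fold within the anterior group and 9.05-fold within the posterior group. Without the 8 components described further on, the other 38 differed 4.48-fold, 9.94-fold and 9.34-fold. The component comp167_c0 (531 bases), among the 3 most abundant of the set, followed the common order. It stood at 41.6, 313.8 and 79.5 CPM in the controls, at 239.6, 25.2 and 34.5 CPM after the anterior wound and at 40.4, 188.8 and 26.1 CPM after the posterior wound. Both of its contigs showed the same order, with within-group SDs of 1.45 and 1.66.

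Inside this set, 8 components had a further feature, a level in anterior replicate 1 at least 5 times that in control replicate 2; this division was made after the values were seen. The component comp4351_c0 (2252 bases) was the most abundant of them. Its control libraries gave 12.6, 152.7 and 2.64 CPM in the order of their numbers. It stood at 970.0, 8.32 and 30.2 CPM in the anterior libraries and at 2.18, 39.3 and 4.45 CPM in the posterior libraries. One anterior library thus held by far the highest level, and the other anterior libraries lay inside the range of the controls.

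The component comp4630_c0 (1084 bases) gave 722.7 CPM in anterior replicate 1, 104.7 CPM in control replicate 2 and 2.54 to 35.8 CPM elsewhere. The component comp6615_c0 (546 bases) gave 263.2 and 39.9 CPM in the same libraries, and comp9244_c0 (204 bases) 76.9 and 12.8 CPM. Over the 8 components the ratio of these libraries stayed between 5.31 and 6.90; in the other 38 members of the set it lay between 0.41 and 1.16. Summed over the 8, anterior replicate 1 held 47794 reads, control replicate 2 held 8599 and each remaining library 134 to 1758. Without anterior replicate 1, 39 of the 46 kept a mean of 5 CPM and 31 were still among the 150.

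The set of 41 components differed most within the posterior group. The median member stood at 8.85, 17.0 and 2.04 CPM in posterior replicates 1 to 3, at 15.7, 13.7 and 4.27 CPM in the controls and at 5.37, 8.26 and 10.1 CPM after the anterior wound. Posterior replicate 3 was the lowest library for 40 of the 41, and control replicate 3 lay below its group mean in all of them. The largest variance was that of the posterior libraries in 35 members. Without posterior replicate 3, 11 of the 41 stayed among the 150.

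The most abundant member of this set, comp3064_c0 (1598 bases), stood at 81.6, 100.3 and 25.4 CPM in the controls. Its anterior libraries were at 46.05, 73.6 and 68.5 CPM and its posterior libraries at 67.5, 124.2 and 11.8 CPM. The component comp2140_c0 (5199 bases) ranged from 12.2 CPM in posterior replicate 3 to 126.9 CPM in posterior replicate 2, and comp5466_c0 (4767 bases) from 8.22 CPM to 69.3 CPM in the same libraries. In these 3 components the highest and the lowest level of the study both came from the posterior group.

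Members of the set of 41 were the longest of the 150 and had the most contigs: the median length was 1598 bases, against 609.5 over all members, and 25 of 41 had several contigs. The same 3 libraries stood highest, and the same 3 lowest, in the length score and in the summed level of the set. The score was 0.51, 0.25 and 0.17 in control replicate 1, posterior replicate 2 and control replicate 2, the 3 libraries with the highest summed level of the set (913.5, 1125 and 900.5 CPM). It was -0.56, -0.24 and -0.20 in posterior replicate 3, control replicate 3 and anterior replicate 1, the 3 with the lowest summed level (119.7, 259.2 and 357.6 CPM). Anterior replicate 3, posterior replicate 1 and anterior replicate 2 lay between, with scores of -0.06, 0.005 and 0.04. Their summed levels (645.4, 591.2 and 569.2 CPM) ran in the other order. The part of this score in the spread of the set was not tested.

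The pattern of the set of 41 reached far beyond the members. Of the other 9479 components of 5 CPM or more, 714 (7.53%) had deviations that correlated above 0.9 with the mean of the set, with a median length of 2946.5 bases and a median within-group SD of 0.36. The closest, comp894_c4 (1381 bases), stood at 47.9, 45.7 and 22.3 CPM in the controls and at 35.4, 51.4 and 14.0 CPM in the posterior libraries. The corresponding counts were 258 (2.72%) for the set of 40 and 162 (1.71%) for the set of 11. For the sets of 46 and 7 they were 16 (0.169%) and 1 (0.0105%). The opposite pattern, at the same cut with a negative sign, was found in 71 components (0.749%) for the set of 41. It was found in 3 (0.0316%) each for the sets of 40 and 46. For the sets of 11 and 7 it was found in 313 (3.30%) and 20 (0.211%), more than had the pattern itself. All counts were computed over the same 9 libraries and describe likeness or its opposite only.

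The set of 40 components divided the controls and the anterior group but not the posterior group. In the controls the median member was at 3.34, 1.76 and 17.5 CPM in the order of their numbers. It stood at 9.31, 2.14 and 10.6 CPM in the anterior libraries and at 14.8, 14.0 and 20.7 CPM in the posterior libraries. Control replicate 3 lay above its group mean and anterior replicate 2 below its own in all 40. The posterior libraries differed by 1.29-fold in the summed level, whereas the controls differed by 8.03-fold and the anterior libraries by 4.31-fold.

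The most abundant member, comp1331_c0 (910 bases), stood at 36.6, 21.4 and 160.1 CPM in the controls, at 107.3, 25.9 and 113.7 CPM after the anterior wound and at 131.9, 119.0 and 158.4 CPM after the posterior wound. The component comp5330_c0 (830 bases) stood at 10.1, 4.91 and 48.0 CPM, then 32.1, 7.48 and 37.1 CPM, then 47.0, 41.4 and 55.3 CPM in the same order. The component comp1841_c0 (439 bases) stood at 8.40, 3.91 and 38.6 CPM in the controls and at 44.5, 48.1 and 53.3 CPM in the posterior libraries, which lay above every control library. In all 3, control replicate 3 lay above every anterior library, and anterior replicate 2 lay between control replicates 2 and 1.

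The set of 40 held short components, with a median length of 444 bases, and 25 of its 40 members were shorter than 500 bases. Such lengths were found in 60 of the 150 members (40%) and in 7.57% of all 9629 components. Control replicate 3 and posterior replicate 3, at the low end of the length score, had the highest summed levels of this set (940.8 and 1030.3 CPM). Control replicate 2 (score 0.17) and anterior replicate 2 (score 0.04) had the lowest (117.2 and 143.2 CPM). Control replicate 1, with the highest score, had 184.9 CPM, and anterior replicate 1 (score -0.20) had 582.3 CPM. The part of the score in this spread was not tested.

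**Figure D4:**
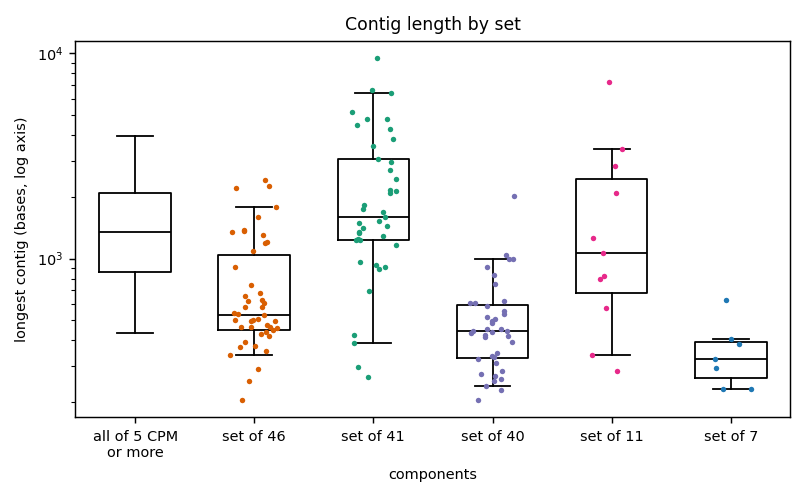
Longest contig of each component in bases (log axis) for all 9629 components of 5 CPM or more and for the 5 sets. Boxes give the median and quartiles, whiskers the 5th and 95th percentiles and points single members; the medians were 1346 bases over all, 1598 in the set of 41 and 444 in the set of 40.

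The set of 11 was set apart by control replicate 1, the library with the highest unmapped share. That library was above its group mean in all 11 and the highest of the 9 in 10 of them. The most abundant member of all 150, comp529_c0 (2077 bases), stood at 3734 CPM in control replicate 1 and at 511.5 and 364.4 CPM in the other controls. Its wounded libraries ranged from 224.0 CPM in posterior replicate 1 to 825.7 CPM in posterior replicate 3. All 4 contigs of this component followed, from 549.2 to 1188 CPM in control replicate 1, with within-group SDs between 1.18 and 1.21.

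The component comp456_c0 (7214 bases) stood at 1146, 268.8 and 113.7 CPM in the controls, between 123.6 and 313.7 CPM after the anterior wound and between 188.4 and 416.0 CPM after the posterior wound. Its contigs had SDs of 1.09, 1.78 and 1.01 and a lowest pairwise correlation of 0.52, against 0.99 for those of comp529_c0. The component comp2032_c0 (1266 bases) reached 338.9 CPM in that control and 17.1 to 71.9 CPM in the other 8 libraries. Without control replicate 1, 0 of the 11 stayed among the 150. The part of the unmapped reads in this pattern was not tested.

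Where a member was assembled as several contigs, its contigs of 1 CPM or more mostly varied together. Of the 45 such members, 37 had at least 2 contigs of 1 CPM or more. In 26 of the 37 every such contig had a within-group SD of 1 or more, and in 0 did one fall under 0.5. The lowest pairwise correlation of the contigs was above 0.7 in 34 of the 37, with a median of 0.96. The members were chosen for the SD of the sum of their contigs, which makes a high SD of the single contigs likely. Contigs of other components were not measured in this way, and contigs of 1 component can share reads. The counts are therefore not independent evidence. The 4 other components that carry the assembler number of a member are not members themselves. Of these, comp6350_c0 had an SD of 0.69 and deviations that correlated with those of its member at 0.98. The other 3, comp49_c0, comp707_c1 and comp566_c1, had SDs of 0.54, 0.11 and 0.09 and correlations of 0.08, 0.49 and -0.48, beside a median SD of 0.22 over all components.

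Whether a high spread in some conditions goes with a high spread in another was examined in libraries that took no part in the choice. Components were ranked by their within-group SD in 2 groups alone, at 5 CPM or more in those 6 libraries, and the 150 highest were measured in the third group. In the control libraries their median SD was 0.97, against 0.25 over all 9581 components ranked, and 88 of the 150 (58.7%) exceeded the 95th percentile of all components. In the anterior libraries the median was 0.94 against 0.11, and 117 (78%) exceeded that percentile. In the posterior libraries it was 0.59 against 0.17, and 69 (46%) exceeded it, while 25 lay under the median of all.

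All 3 held-out values were thus above the background, and the posterior value the least so. They do not describe the 150 members as such, since each choice gave its own list. Of the 150 chosen, 96 were members with the controls held out, 121 with the anterior and 103 with the posterior libraries held out. These components were not matched on level with the rest, and components of 1 set do not vary independently. Leaving out 1 library of the held-out group moved the values. The control value was 0.47 without control replicate 3, where the median of all components was 0.21. The anterior value was 0.37 without anterior replicate 1, beside 0.10 over all. The posterior value was 0.35 without posterior replicate 2, beside 0.15, and 0.24 without posterior replicate 3, beside 0.08.

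**Figure D5:**
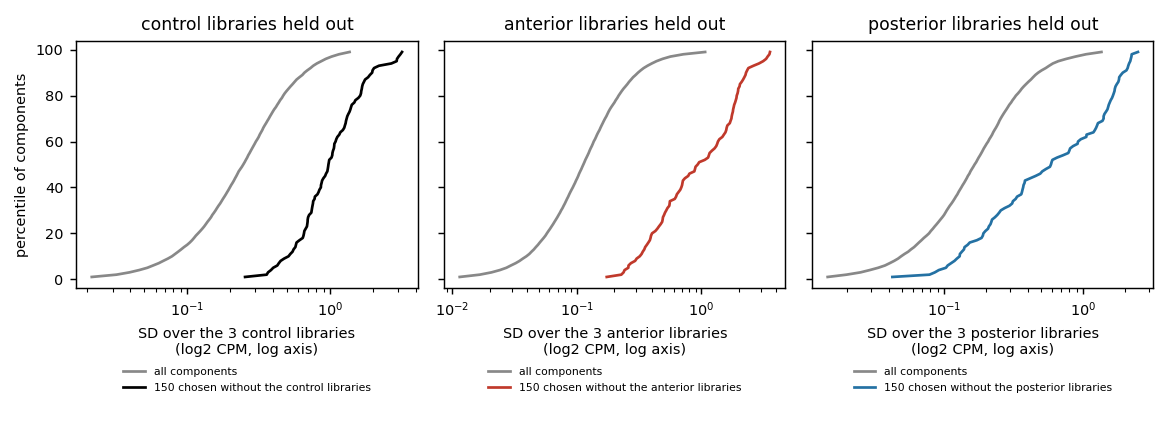
Percentile of components against the SD over the 3 libraries of the group that was held out (log2 CPM, log axis), for all components ranked (grey) and for the 150 chosen on the other groups (coloured). The coloured curves lie to the right of the grey ones in every group, with medians of 0.97, 0.94 and 0.59 against 0.25, 0.11 and 0.17.

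No member was called between conditions when all 9 libraries were used. edgeR's quasi-likelihood test, run over 21322 components with Benjamini-Hochberg adjustment, could test 149 of the 150; comp9899_c0 did not pass its filter. In the anterior group against the control it called 0 members, beside 0.0281% of all components. In the posterior group it called 0, again beside 0.0281%, and between the wounds 0 beside 0%. The lowest adjusted p of a member was 0.964, 0.780 and 1.00 in the order given. At an unadjusted p under 0.05 there were 5 members for the anterior wound (background 3.84%), all lower (2.66%), and 7 for the posterior wound (5.96%), all lower (3.32%). Between the wounds there were 14 (2.72%), of which 8 were higher after the anterior wound (0.868%) and 6 lower (1.86%). All 8 belong to the set of 46, whose high anterior library was replicate 1. Of the 6, 3 belong to the set of 40 and 3 to the set of 3. Of the 7 for the posterior wound, 5 belong to the set of 7, which peaked in control replicate 2. The other 2 belong to the set of 11, which was set apart by control replicate 1. DESeq2 and limma-voom also called 0 members in each comparison; DESeq2 gave no adjusted p for 23 of them. The spread that chose the members enters these tests, so the counts say little about them.

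The sizes of the differences were nevertheless large in places, and so were their errors. The median log2 fold change of the members was -0.49 for the anterior group and -0.57 for the posterior group against the controls they share, beside -0.03 in both over all components tested. The median standard error was 0.76, against 0.33 over all. In the set of 40, all 40 members had a positive log2 fold change after the posterior wound, with a median of 1.13 and a median standard error of 0.69. In the set of 46, all 46 had a negative one, with a median of -0.89 and a median standard error of 1.02. In the set of 7, the 6 tested had a median of -5.40 with a median standard error of 2.16. That value rests on control replicate 2, where the set of 7 summed to 1124.6 CPM. In control replicates 1 and 3 the sum was 4.28 and 1.07 CPM, below the 6.53 to 13.7 CPM of the posterior libraries. None of these differences passed the test, and all members of a set share their pattern over the libraries.

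Replicates of each wound overlapped those of the control in nearly all members. The members were chosen for a high spread within groups, which makes such overlap likely. The low counts against the control therefore say little about the wounds. The anterior libraries lay wholly below the controls in 1 of 150 members (background 7.40% of 9629 components) and wholly above in 0 (5.09%). The posterior libraries lay wholly above the controls in 4 (background 8.84%) and wholly below in 0 (4.73%). Between the wounds, the groups did not overlap in 36 members (background 14.7%): the anterior libraries lay wholly below the posterior ones in 35 (background 11.8%) and wholly above in 1 (background 2.93%). Of the 35, 33 belong to the set of 40, in which anterior replicate 2 was low in every member, and 2 to the set of 3. That anterior replicates 1 and 3 lay below every posterior library in these 33 follows from how they were counted. Members of the set of 40 share 1 pattern, so the 33 are not separate observations. The largest variance was that of the controls in 38 of the 40 and of the posterior libraries in 0. The median member of the set of 40 stood at 9.31 and 10.6 CPM in anterior replicates 1 and 3, against 14.0 to 20.7 CPM in the posterior libraries.

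In that set of 3, comp1056_c0 (294 bases) is the 1 member whose anterior libraries lay below both other groups; it and comp628_c0 are named here after their values were seen. It stood at 18.1, 3.17 and 2.44 CPM in the controls, at 1.60, 0.362 and 0.192 CPM after the anterior wound and at 2.86, 21.8 and 8.83 CPM after the posterior wound. The component comp628_c0 (420 bases) stood at 123.4, 36.7 and 17.9 CPM, then 24.7, 7.72 and 2.05 CPM, then 25.1, 171.1 and 47.4 CPM in the same order. Its anterior libraries lay below the posterior ones but overlapped the controls.

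Members were called with 1 library left out. Without control replicate 3, edgeR called 22 of the 150 after the posterior wound: 21 higher, where the background was 1.17%, and 1 lower, where it was 0.119%. All 21 belong to the set of 40, of which control replicate 3 was the high control. Their folds in that fit ran from 4.61 to 8.25, the highest at comp12137_c0, which gave 2.10, 1.24 and 12.5 CPM in the controls in the order of their numbers and 13.8, 14.1 and 14.0 CPM in the posterior libraries. The 1 that was lower is comp9899_c0, whose reads lay in control replicate 2. In the same fit the anterior wound gave 0 calls among the members. Control replicate 3 also helped to choose the set of 40: without it, 11 of the 40 stayed among the 150. Leaving out that library removes spread for which these members were chosen, and leaves fewer controls. The count of calls is therefore no independent evidence of a change after the posterior wound.

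In the authors' deposited table of DESeq results, 0 of the 150 had an adjusted p under 0.05 for the anterior wound, where it called 9 components (0.0199%), and 0 for the posterior wound, where it called 23 (0.0506%). The summed counts deposited by the authors repeat posterior replicate 2 in the column of posterior replicate 3 for every component of several contigs. This touches 45 members. Their median SD over the posterior libraries was 1.53 in the sums made from single contigs and 0.52 in the deposited sums, and it was lower in the deposited sums for 40 of the 45.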

How the data were processed

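The authors deposited, for each of the 9 libraries, raw read counts per contig, with contig lengths and unmapped reads. Per the submitters' processing notes, Bowtie2 2.0, SAMtools and DESeq were used; the sources used here do not give the assembly. A deposited table of counts summed per component served as an alternative. The authors also deposited DESeq results for each wound against the control; per the file headers these are a ratio (fold change), a p-value and an adjusted p-value.

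Counts were summed over the contigs of a component. CPM used all mapped reads without comp0_c0, and log2 values a pseudocount of 0.1. CPM are not per length, so levels are compared between libraries and not between components. Groups follow the sample titles. Calls came from edgeR 4.0.16 in R 4.3.3 (TMM, filterByExpr with a minimum count of 10, 1 fit of 3 groups over 9 libraries, Benjamini-Hochberg adjustment over all 21322 components, threshold 0.05). The standard error is the log2 fold change over the root of F. Alternatives were DESeq2 1.42.0, limma 3.58.1 (voom), other scalings, filters and pseudocounts, a replicate block and each library left out. Ranking, clustering and the edgeR fit were tested on simulated data. The members, sets and comparisons were chosen with earlier results of these data known.

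By rule the text names the 10 members of highest SD, the 3 most abundant of each set of 5 or more, the 2 components on each side of the limit, up to 2 members called in each direction (none was) and the 3 most abundant members of several contigs; others are named for a stated feature, after their values were seen.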

Additional observations from a re-analysis of the deposited data

How the results depend on the processing

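Applied again, the rule kept 129 of the 150 members with TMM scaling, 138 with DESeq2's size factors, between 134 and 142 with a larger pseudocount, 133 by edgeR's dispersion and 129 in the deposited sums. It kept 67 with a minimum of 1 CPM and 87 with a minimum of 10 CPM, since other components then enter or members leave. Leaving out 1 library kept between 115 and 139. The spread left after a replicate block kept 120. In the fit with a replicate block 0 members were called in each comparison. Of 9 same-number pairs of libraries, 4 correlated above 0.1, with a range from -0.43 to 0.45 over 9629 components. Pairs of different numbers ranged from -0.49 to 0.31. Whether libraries of the same number were handled together was not tested.

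The count of members called was 0 in each comparison under every alternative run except 1. With 1 library left out it ranged from 0 to 0 for the anterior wound, from 0 to 22 for the posterior wound (22 without control replicate 3) and from 0 to 0 between the wounds. The median log2 fold change of the members, an alternative added after seeing the data, crossed 0 for the posterior wound without control replicate 2 (0.13), and between the wounds ranged from -0.96 without anterior replicate 1 to 0.71 without posterior replicate 2. Fold changes of single members are printed only from the fit without control replicate 3, since none was called with all libraries. In each comparison at most 54 of 149 took the other sign under an alternative.

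The 5 sets held 145 members. A correlation of 0.6 or 0.8 also gave 5 sets, of 147 and 141 members, whereas complete linkage gave 7 sets of 137 members and centring on the 9 libraries 7 sets of 147; the largest set held 38 to 46. The medians in held-out libraries ranged, with 1 library left out, from 0.47 to 1.01 in the controls, from 0.37 to 1.10 in the anterior and from 0.24 to 0.64 in the posterior libraries; a pseudocount of 1 or TMM scaling moved them by less than this spread. At 5 CPM a library holds enough reads that counting error is small beside the spread, but 3 reads are worth 0.149 to 0.225 CPM, and lower levels rest on fewer.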
